A study of Rosa chinensis with 4 samples.

Results

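Broad domains of histone H3 acetylated at lysine 9 (H3K9ac) in rose petals are described here. They are the peaks of 1500 bp or more on the 7 chromosomes of the RchiOBHm assembly, and 1961 of the 46391 chromosomal peaks met this rule, which is 4.23%. A single peak of over 10000 bp, over a ribosomal RNA array, was left out. The other 44429 chromosomal peaks served as the comparison, and the 4885 of them with a width of 1000 to under 1500 bp, called the next-widest peaks below, as the closest one.

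The study mapped histone marks in Rosa chinensis petals collected as the flowers began to open. Chromatin was fixed with 1% formaldehyde, and antibodies against H3K9ac or H3K27me3 were used, each with an input without antibody, which gave 4 samples, each a single library. Only the H3K9ac library is described, and the remaining 3 samples are not used here. The labels name no cultivar, genotype or treatment, and do not say how many flowers or plants were pooled. The peak names in the deposited list hold the word Flower where the labels say petal, and no expression values were at hand to check the tissue against marker genes.

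Lysine acetylation of the histone H3 tail is added by acetyltransferases and removed by deacetylases. It weakens the hold of the tail on DNA and is bound by proteins with a bromodomain. In plants H3K9ac typically lies over the first nucleosomes downstream of the transcription start of active genes, so most of its peaks are narrow, and a domain of 1500 bp or more spans several nucleosomes. Petals at opening are tissues of rapid cell expansion, pigment formation and scent production.

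With 1 library there is no spread between plants and no test, so no p-values are given and no difference is called significant. Shares carry 95% exact binomial intervals, counts 95% exact Poisson intervals, and medians 95% order-statistic intervals. All cover counting error only, and neighbouring peaks and genes are not independent. The members were chosen by the authors' called peak width, and fold, q-value and summit height come from the same peak calls, so these 4 are descriptions. Gene models, gene types and gene positions come from the RefSeq annotation and did not enter the rule.

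The domains formed the tail of a continuous range of widths rather than a separate class. Their median width was 1828 bp (1803 to 1845), with quartiles at 1637 and 2148 bp and a maximum of 5907 bp. The counts fell steadily across the limit, from 534 peaks of 1400 to under 1500 bp to 385 of 1500 to under 1600 bp. Of the members, 1279 were 1500 to under 2000 bp wide, 421 were 2000 to under 2500 bp, 139 were 2500 to under 3000 bp and 122 were 3000 bp or more. The 85 peaks of 1500 to 1519 bp had a median fold enrichment of 8.61 and 64.7% of their summits at a protein-coding gene end, and the 99 peaks of 1480 to under 1500 bp just outside the rule had 9.17 and 71.7%. Together the domains covered 3.92 Mb, 14.6% of the length of all chromosomal peaks.

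**Figure D1:**
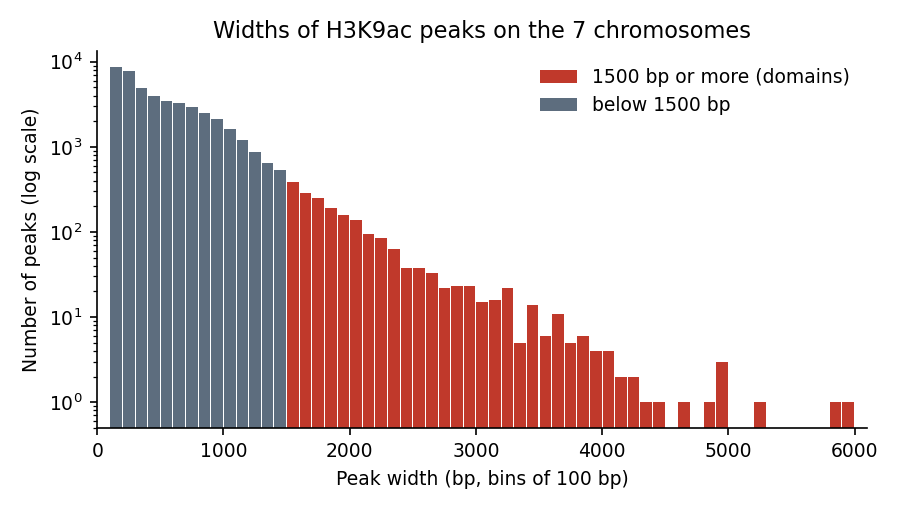
Number of chromosomal H3K9ac peaks (log scale) per 100 bp of width, without the peak over the ribosomal RNA array. Red bars are the 1961 domains of 1500 bp or more and grey bars the narrower peaks. The counts fall without a gap at the limit, from 534 to 385 in the bins on either side of it.

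The domains were also high, although height and width were only loosely related among them. The authors' fold for a peak compares its summit with a background. Its median was 10.4 (10.2 to 10.7), against 4.56 for the other peaks and 9.66 for the next-widest peaks. The depth behind a domain was a median of 50 fragments over the summit, with a range of 15 to 173. The median was 46 for the next-widest peaks and 21 for the other peaks. Among members, width and fold had a Spearman correlation of 0.0912 over 1961 domains of the same library. The 122 domains of 3000 bp or more had a median fold of 12.7 (11.2 to 13.6), and the 1279 of 1500 to under 2000 bp had 10.3 (10.01 to 10.6). The share of peaks that were domains was 3.45% at 20 to 39 fragments over the summit, 11.5% at 40 to 59, 16.5% at 60 to 79 and 16.5% at 80 or more. Peaks below 20 fragments were not in these classes.

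Nearly all domains lay over protein-coding genes. Of the 1961, 1810 touched at least 1 protein-coding gene (92.3%, 91.03 to 93.4), against 64.1% of the other peaks and 85.4% (84.4 to 86.4) of the next-widest peaks. A wider peak touches a gene more easily. The summit itself was inside a protein-coding gene in 89.3% (87.8 to 90.6) of domains. This share was 83.8% (82.7 to 84.8) for the next-widest peaks and 62.7% for the other peaks. Of the bases under domains, 85.9% were inside protein-coding genes, against 82.2% under the next-widest peaks and 68.0% under the other peaks. The summit was inside a protein-coding gene and within 1000 bp of an end in 1404 domains (71.6%, 69.5 to 73.6), where the other peaks had 48.2%. This difference did not hold against the neighbours in width. The next-widest peaks had 74.7% (73.4 to 75.9) of their summits at gene ends, slightly more than the domains. Summits deeper than 1000 bp inside a gene made up 17.7% (16.03 to 19.5) of domains, 9.11% (8.32 to 9.95) of the next-widest peaks and 14.5% of all other peaks.

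Within the domains, the position at a gene end varied with height. When members were ranked into 4 equal classes by fold, 61.1% (56.6 to 65.4) of summits were at a gene end in the lowest class, up to a fold of 7.95, and 82.4% (78.8 to 85.7) in the highest, from 13.8. At 60 to 79 fragments over the summit the share was 80.3% (76.3 to 83.9) for 447 domains, 87.4% (85.03 to 89.5) for next-widest peaks and 77.03% (75.2 to 78.8) for all other peaks. At 20 to 39 fragments it was 60.2% (55.9 to 64.4), 63.9% (61.6 to 66.2) and 48.1% (47.3 to 48.9). At 80 fragments or more it was 82.8% (76.8 to 87.8), 80.2% (75.7 to 84.1) and 57.0% (53.9 to 60.1). The difference between domains and all other peaks was thus smaller than over all heights in each class from 20 to 79 fragments. At 80 or more it was not smaller, and the part of height in it was not tested.

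On long genes, most domains began near a gene end and ran inward. In the 1009 domains whose main gene, the protein-coding gene with the most bases under the domain, was at least 3000 bp long, positions were counted from the gene end nearer the summit. The annotation used here gives no strand, so this end can be a transcription start or a transcription end. The outer edge of the domain lay a median of 49 bp inside the gene (40 to 60), the summit 621 bp inside (563 to 647) and the inner edge 1982 bp inside (1923 to 2029). The next-widest peaks had nearly the same outer edge, 40 bp inside (35 to 45), with a summit at 402 bp (389 to 417) and an inner edge at 1235 bp (1223 to 1248). With outer edges this close, the distance between the inner edges is fixed by the width limits that define both groups and is no separate result. The choice of the end nearer the summit lowers the summit distance in every group. The pattern did not hold on the longest genes. For the 84 domains with a main gene of 10000 bp or more, the outer edge lay a median of 1644.5 bp inside.

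The outer edge was within 200 bp of the gene end in 615 of the 1009 domains (61.0%, 57.9 to 64.0), and in 72.7% (70.9 to 74.4) of the next-widest peaks. At 50 bp outside the gene 25.4% of domains were still present, at 150 bp inside 71.7% and at 800 bp inside 86.03%. At 1550 bp inside 76.8% of domains remained and at 3000 bp inside 16.7%. At 500 bp outside the gene 9.91% of domains were present, against 2.76% of next-widest peaks and 0.656% of all other peaks. A wider peak reaches farther outside the gene, so this contrast partly follows from the rule. The summit was in the part of the peak nearer the gene end in 76.6% (73.9 to 79.2) of domains, 80.2% (78.6 to 81.7) of next-widest peaks and 62.9% of all other peaks. The end was itself chosen as the one nearer the summit, which raises this share in every group. The summit sat off centre in domains in general, at a median of 26.5% of the width from the closer edge, against 28.8% for next-widest peaks and 33.8% for the other peaks.

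**Figure D2:**
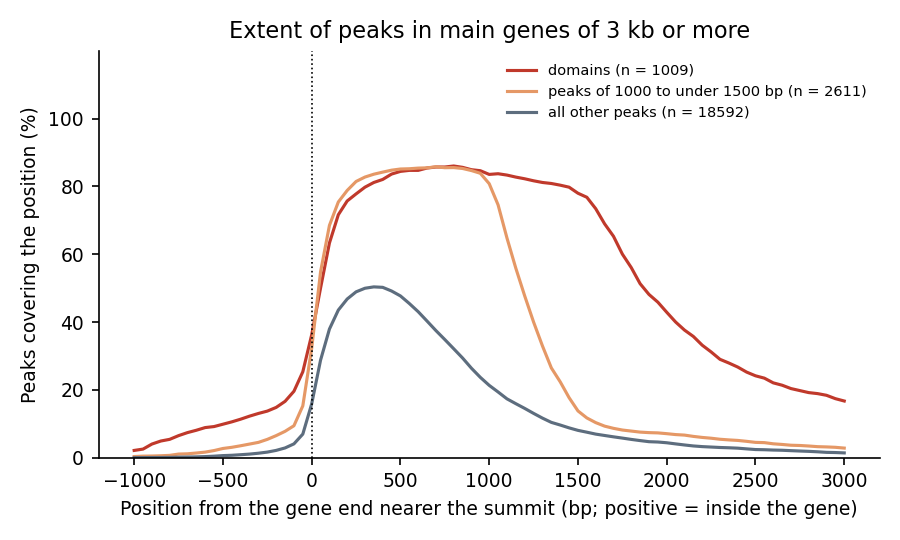
Share of peaks (%) that cover each position, in steps of 50 bp, around the end of the main gene nearer the summit, for main genes of at least 3000 bp. Positive positions are inside the gene. Domains (red, n = 1009) and next-widest peaks (orange, n = 2611) rise together at the gene end, to 71.7% and 75.4% at 150 bp inside, and part from about 1000 bp inward, with 83.3% and 64.8% at 1100 bp and 76.8% and 11.8% at 1550 bp. All other peaks are in grey (n = 18592) and include the orange ones.

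The median domain covered more of its gene than not. Over the 1810 domains with a main gene, the covered share of that gene had a median of 57.4% (55.4 to 60.1), against 31.5% (30.8 to 32.2) for next-widest peaks and 11.8% for all other peaks. At least 90% of the gene was covered in 398 cases (22.0%, 20.1 to 24.0), and 113 domains (5.76%, 4.77 to 6.89) held at least 1 whole protein-coding gene. Neither end of the main gene was under the domain in 928 cases (51.3%), 1 end was in 775 (42.8%) and both were in 107 (5.91%). A wider peak covers more of any gene, so these shares are partly fixed by the rule.

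Domain width changed little with gene length, and coverage fell as genes became longer. The cut at 1500 bp narrows the range of widths, and coverage is a share of gene length. Both patterns therefore follow largely from the rule and the measure. The median domain was 1680 bp wide on genes of 1500 to under 2000 bp, 1926 bp on genes of 2000 to under 3000 bp, 1858.5 bp on genes of 3000 to under 4000 bp and 1808 bp on genes of 6000 to under 10000 bp. Median coverage over the same gene classes went from 91.8% through 78.5% and 53.1% to 25.2%. Width and main gene length had a Spearman correlation of 0.0755 over 1810 domains. On genes of 2000 to under 4000 bp with the summit inside the gene, the inner edge stopped before the far end in 736 of 818 domains (89.98%, 87.7 to 91.9), came within 200 bp of the far end in 167 (20.4%, 17.7 to 23.3) and passed it by more than 200 bp in 46 (5.62%, 4.15 to 7.43).

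The domains of 3000 bp or more had widths scattered around the lengths of their main genes. In the 117 domains of 3000 bp or more with a main gene, the width was a median of 99.8% of the gene's length (94.8 to 104.4). Quartiles were at 81.0% and 120.8%, with a range of 4.49% to 783%. The covered share in these domains was a median of 95.2% (92.9 to 97.6). At least 90% of the gene was covered in 76 of them (65.0%, 55.6 to 73.5), against 178 of 1168 domains of 1500 to under 2000 bp (15.2%, 13.2 to 17.4). Their main genes were a median of 3469 bp long (3235 to 3760), against 3208.5 bp (3059 to 3355) under the domains of 1500 to under 2000 bp, and these intervals overlap. With genes of similar length, the higher coverage under the wider domains follows from the width limit. A median width near the gene length follows from it too and is no separate result. Both edges lay within 200 bp of both gene ends in 24 of the 117 (20.5%, 13.6 to 29.0) and in 135 of the 1168 (11.6%, 9.78 to 13.5). Within 300 bp the shares were 24.8% (17.3 to 33.6) and 18.2% (16.1 to 20.6), with overlapping intervals.

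**Figure D3:**
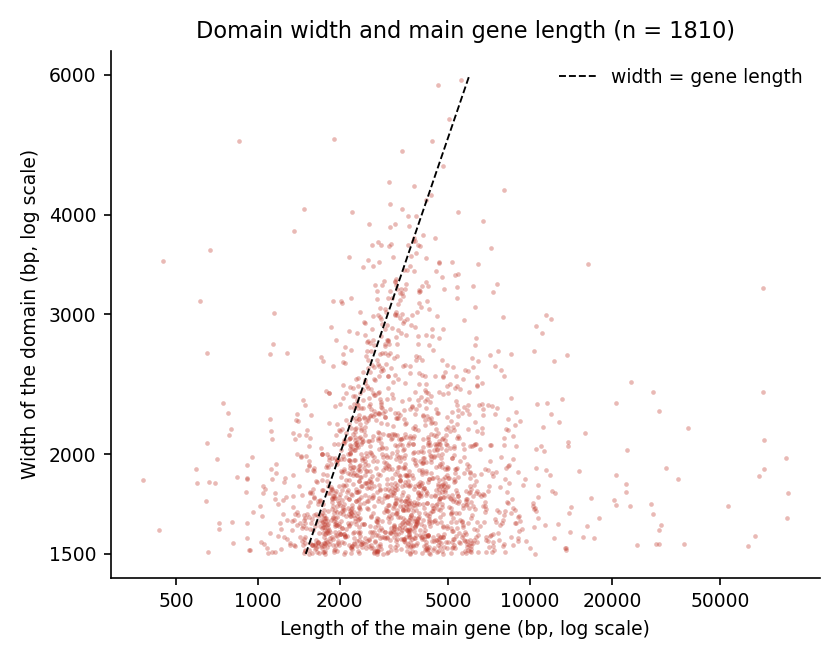
Width of each domain against the length of its main gene (bp, both axes on a log scale), 1 point per domain, n = 1810. The dashed line marks equal width and length. Of the points, 1513 lie to the right of it. The domains of 3000 bp or more scatter around it. Their width had a median of 99.8% of the gene's length and quartiles at 81.0% and 120.8%.

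Genes of middle length held domains most often. Among protein-coding genes ranked into 10 classes by length, 24 of 3084 genes of 114 to 897 bp were the main gene of a domain (0.778%, 0.499 to 1.16). The share was 7.12% (6.24 to 8.09) at 1817 to 2269 bp and stayed between 7.12% and 7.99% up to 5075 bp. It was 5.002% (4.26 to 5.83) at 7100 bp and above. Among genes that were the main gene of any peak, the share was highest at 2270 to 2767 bp, with 12.5% (11.1 to 14.1), next to 12.4% at 1817 to 2269 bp, and fell to 6.36% (5.42 to 7.405) in the longest class. A gene shorter than 1500 bp can only be the main gene of a domain that runs past it, so the low shares of the shortest classes partly follow from the rule. The median length of main genes was 3240 bp (3162 to 3355) over domains, 3588 bp (3527 to 3657) over next-widest peaks and 3754 bp (3723 to 3790) over all other peaks.

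**Figure D4:**
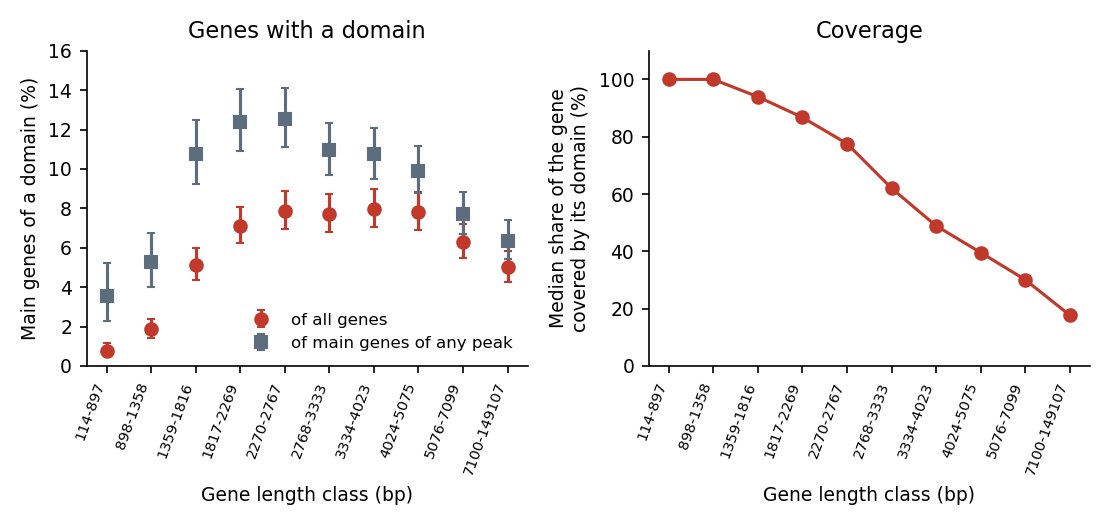
Left, share of protein-coding genes (%) that are the main gene of a domain, in 10 length classes, of all genes (red circles) and of genes that are the main gene of any peak (grey squares), with 95% exact binomial intervals. Right, median share of the gene (%) covered by its domain in the same classes. The share of all genes is highest between 1817 and 5075 bp, while coverage falls from 100% to 17.7%.

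In all, 1772 different protein-coding genes were the main gene of a domain, and 38 of these held 2 domains. The 38 genes were a median of 5786.5 bp long (4785 to 6727), and the gap between their domains had a median of 761.5 bp (406 to 1426) and a minimum of 140 bp. The gene with the highest covered share was LOC112173087 on chromosome 6, of 3259 bp, where domains of 1808 and 1610 bp with a gap of 144 bp covered 95.2% of the gene at folds of 21.2 and 7.54. LOC112191697 on chromosome 3, of 6191 bp, had domains of 3258 and 2573 bp over 94.2% of its length. A second peak of any width touched 858 of the 1772 main genes (48.4%, 46.1 to 50.8), against 40.1% (39.3 to 40.8) of the 16964 main genes of narrower peaks only. Another peak lay within 500 bp of 48.9% of domains (46.7 to 51.1), of 34.6% (33.3 to 35.9) of next-widest peaks and of 37.7% of the other peaks. The smallest gap between peaks in the list was 101 bp, and a stretch with such a gap counts as separate peaks.

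Main genes of domains stood farther from their neighbours than genes with narrower peaks only. Genes with next-widest peaks were not set apart among the latter. The distance to the nearest protein-coding gene had a median of 1679 bp (1501 to 1892) for the 1772 genes with a domain, 1144 bp (1108 to 1187) for the 16964 genes with narrower peaks only and 3062 bp (2929 to 3206) for the 12062 genes that were the main gene of no peak. Within genes of 1500 to under 2500 bp the medians of the 3 kinds were 2318.5 bp (1874 to 2675), 1111 bp (1010 to 1201) and 2804 bp (2551 to 3007). Within genes of 2500 to under 4000 bp they were 1460 bp (1241 to 1741), 963 bp (905 to 1031) and 3298 bp (2863 to 3599). In genes of 4000 to under 8000 bp the distances were 1620 bp (1141 to 2009) for genes with a domain and 1198 bp (1121 to 1271) for genes with narrower peaks only, and these intervals overlap.

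Shorter genes with a domain less often had several annotated transcripts than genes with narrower peaks, by intervals that do not overlap. More than 1 RefSeq transcript was annotated for 56 of 464 genes of 1500 to under 2500 bp with a domain (12.1%, 9.25 to 15.4). The share was 19.4% (18.02 to 20.7) with narrower peaks only and 11.7% (10.6 to 12.9) for genes that were the main gene of no peak. At 2500 to under 4000 bp the values were 28.0% (24.4 to 31.8), 34.5% (33.2 to 35.9) and 23.2% (21.5 to 25.04). At 4000 to under 8000 bp, genes with a domain had 51.4% (46.8 to 55.9) and genes with narrower peaks 51.3%. Genes with next-widest peaks were not set apart in these length classes. Counted per peak over all lengths, the main gene had more than 1 transcript for 32.0% (29.9 to 34.2) of domains. The share was 36.8% (35.3 to 38.3) for next-widest peaks and 39.1% for all other peaks. These per-peak shares were not matched for gene length, and the share with several transcripts rose with length in the classes above. Main genes had a median length of 3240 bp for domains, 3588 bp for next-widest peaks and 3754 bp for all other peaks.

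A minority of domains touched several genes. There were 157 domains on 2 or more protein-coding genes (8.01%, 6.84 to 9.30), against 3.296% (2.81 to 3.84) of next-widest peaks and 1.54% of the other peaks, and a wider peak reaches a second gene more easily. In 52 of the 157 the gene models themselves overlapped. In the other 105 the genes were apart, with a median gap of 117 bp (98 to 138), where all neighbouring protein-coding genes without overlap had a median gap of 6184 bp (6016 to 6386). A domain can touch separate genes only where the gap is shorter than its own width, so the short gaps follow from the selection. In 102 of the 105 the summit was inside a gene, and in 3 it was between the genes. Few of the places where genes lie close together were joined. Of 6049 neighbouring gene pairs less than 1000 bp apart, 103 (1.70%, 1.39 to 2.06) were bridged by a domain, 140 (2.31%) by a narrower peak, and 3463 (57.2%) had a peak on each gene with none across both. Domains touched only 1925 of the 30798 protein-coding genes, so a low share bridged by domains partly follows from their small number. The share among close pairs that carry a domain was not counted.

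The 10 widest domains ranged from 4352 to 5907 bp, and all coordinates are on RchiOBHm-V2. The gene table used here pairs these genes with identifiers and no product names, so no function is stated for them. Over LOC112190746 on chromosome 2, from 8472964 to 8478549, the widest domain had 87 fragments over its summit, which lay 326 bp inside the gene, and it started 657 bp outside the gene. On the same chromosome, LOC112187273, from 8445689 to 8449079, was covered whole by a domain of 4805 bp at a fold of 15.5 (11.96 to 19.8), which also covered 764 bp of its neighbour LOC112187274. The domain of LOC112185351 reached 1400 bp past the right end of the gene, with 61 fragments at its summit, and it covered the lncRNA (long non-coding RNA) gene LOC112185352 whole.

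LOC112180898 on chromosome 7, from 7773466 to 7777836, was wholly inside a domain of 4955 bp with a fold of 18.9 (14.97 to 23.6), which passed the gene by 231 bp on one side and 353 bp on the other. LOC112196564 on chromosome 4, from 62333064 to 62336084, was also covered whole, by a domain of 4404 bp with a fold of 21.8 (17.8 to 26.4). That domain extended 1264 bp past the left end of the gene and 119 bp past the right. On chromosome 2, LOC112189872, from 80492297 to 80497103, was covered over 92.4% of its length at a fold of 10.02 (7.36 to 13.3). LOC112165369 on chromosome 5 was covered over 91.04%, at a fold of 12.7 (9.92 to 16.03), by a domain starting 948 bp outside the gene.

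The domain of 4957 bp on chromosome 6, from 56612229 to 56617185, differed from these. It spanned 2 short genes whole, LOC112171950 of 853 bp and LOC112171949 of 776 bp, and the 3317 bp between them, the widest gap bridged by any domain. Its fold was 22.4 (18.3 to 27.2), with 102 fragments over a summit inside LOC112171949. The remaining domains of the 10 belonged to LOC112170364 on chromosome 6, where 97.6% of the gene was covered at 68 fragments, and to LOC112196997 on chromosome 4, where the domain ran 1290 bp and 1778 bp past the gene's ends and over 1669 bp of the neighbouring LOC112196994.

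The domains of highest fold were of ordinary width. Of the 10 highest, with folds of 26.7 to 30.7, 9 were 1500 to 2096 bp wide, and the other, on LOC112164969, was 2874 bp wide. LOC112176786 on chromosome 7 had the most fragments among them, 136, with its summit 349 bp inside the gene and 56.4% of the gene covered. The gene LOC112197502 (chromosome 4, 62774683 to 62778673) carried a domain at 28.4-fold (23.8 to 33.7), with the summit 377 bp inside and 50.7% covered. LOC112193607 on chromosome 3 had 27.9 (23.1 to 33.4), with the summit 175 bp inside.

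On chromosome 5, LOC112164969 had a fold of 27.6 (22.7 to 33.1), with the summit 46 bp outside the gene, and LOC112168456 had 27.2 (22.5 to 32.7) with 99.3% of its 1642 bp covered. LOC112200509 on chromosome 4, of 2750 bp, had 26.7 (22.0 to 32.2) with a domain of exactly 1500 bp. LOC112181555 and LOC112197003 headed the list, with 30.6% and 96.0% of the gene covered, and LOC112200436 had 99.5% covered. The other high domain lay on the pseudogene LOC112165241 on chromosome 5, at 27.1 (22.4 to 32.6). All 10 intervals overlapped, and the depth did not allow the 10 to be ordered.

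Of the 5 domains on the most genes, 3 touched 3 protein-coding genes each. On chromosome 7, a domain of 2338 bp covered 967 bp of LOC112179447, all 909 bp of LOC112178671 and 204 bp of LOC112176441, genes that follow one another without overlap. The other domains on 3 genes lay on overlapping gene models. A domain of 1526 bp on chromosome 1 was wholly inside LOC112190880, LOC112190909 and LOC112199846, of 13495, 88192 and 80168 bp. A domain of 2395 bp on chromosome 5 was wholly inside LOC112203295, of 72121 bp, and also touched LOC112202326 and LOC112203297. Its local background of 9.39 fragments was above the median of 3.65 over all domains, and its fold was 5.58 (4.25 to 7.20).

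Domains without a protein-coding gene numbered 151 (7.70%, 6.56 to 8.97), against 14.6% (13.6 to 15.6) of next-widest peaks and 35.9% of the other peaks. Of these, 45 touched a lncRNA gene (29.8%, 22.6 to 37.8), against 30.2% of next-widest and 17.4% of other peaks without a protein-coding gene. A pseudogene was touched by 32 (21.2%, 14.97 to 28.6), against 12.8% (10.4 to 15.4) and 7.74%. No annotated gene was touched by 76 (50.3%, 42.1 to 58.6), against 56.4% and 74.4%. A domain could touch both a lncRNA gene and a pseudogene. Over all domains, 66 touched a lncRNA gene (3.37%, 2.61 to 4.26), against 5.18% (4.57 to 5.84) of next-widest peaks and 6.75% of the other peaks. Domains that touched no annotated gene were 3.88% of members (3.07 to 4.83), against 8.23% (7.47 to 9.04) of next-widest peaks and 26.7% of the other peaks. A wider peak reaches a gene more easily, so the low shares of domains without a gene partly follow from the rule. Median width in the 151 domains was 1730 bp and their fold 9.40, against 1833 bp and 10.5 for the domains with a protein-coding gene.

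The widest of the domains without a protein-coding gene lay mostly on pseudogenes. They were picked with their values in view. On chromosome 7 a domain of 3965 bp, from 25896922 to 25900886, touched the lncRNA gene LOC121050502 and the pseudogene LOC112176914 at a fold of 14.8 (11.7 to 18.5). On the same chromosome, the pseudogene LOC112180134, of 3457 bp, was covered whole by a domain of 3643 bp at a fold of 15.2 (11.7 to 19.5). On chromosome 6, a domain of 3886 bp lay wholly inside the pseudogene LOC112172901, of 4087 bp, at a fold of 9.40 (6.75 to 12.8). The widest domain without any annotated gene was one of 3100 bp on chromosome 5, with 53 fragments over its summit.

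Chromosomes differed in how many domains they held for their genes. Chromosome 2 had 405 domains, or 72.3 per 1000 protein-coding genes (65.4 to 79.7), and chromosomes 3 and 6 had 70.9 (61.8 to 81.0) and 70.6 (63.1 to 78.9). Chromosome 5, with 269 domains, had 50.3 (44.5 to 56.7), and chromosome 1, with 216, had 52.7 (45.9 to 60.2). As a share of all peaks the domains were 3.51% (3.06 to 4.0) on chromosome 1, 3.54% (3.14 to 3.98) on chromosome 5 and 4.67% (4.23 to 5.13) on chromosome 2. Median widths were close on all 7 chromosomes, from 1797.5 bp on chromosome 6 to 1902 bp on chromosome 3.

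**Figure D5:**
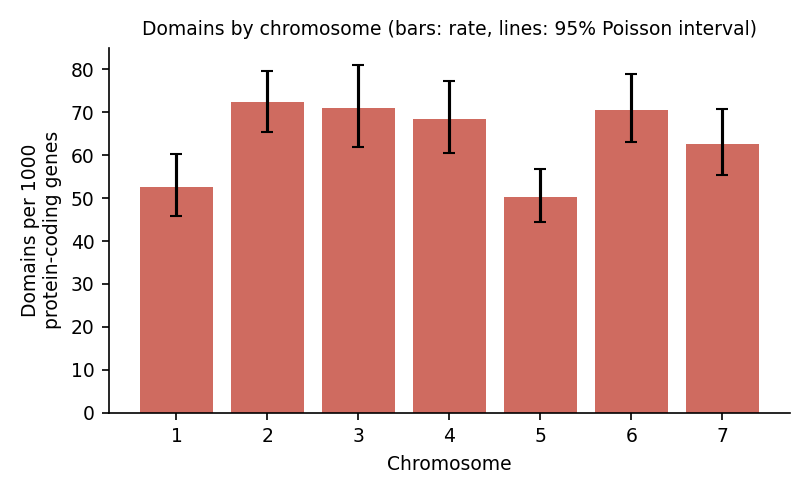
Domains per 1000 protein-coding genes on each of the 7 chromosomes, with 95% exact Poisson intervals that cover counting error only. Chromosomes 1 and 5, at 52.7 and 50.3, lie below the others, which range from 62.7 to 72.3, and the interval of chromosome 7 overlaps theirs.

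The share of peaks that were domains was higher where genes were dense. In 507 windows of 1000000 bp ranked into 4 classes by gene number, domains were 2.96% (2.56 to 3.41) of the peaks in the poorest class. The following classes had higher shares, through 3.44% and 4.02% to 5.16% (4.85 to 5.48) where genes were most numerous. Over the windows, the number of domains followed the number of protein-coding genes with a Pearson r of 0.667 and a Spearman rho of 0.650, given as a description since windows of 1 library share depth and neighbours. For all peaks and genes over the same windows the Pearson r was 0.911. There were 69 windows without a domain, which held a median of 50 peaks and 41 genes. The richest window, on chromosome 4 from 62000001 to 63000000, held 24 domains among 216 peaks and included the domains of LOC112196564 and LOC112197502.

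The same library placed on the other assembly, RcHzRDP12, gave fewer broad domains. There 839 of 50543 peaks were 1500 bp or more wide (1.66%, 1.55 to 1.78), against 4.23% (4.05 to 4.41) on the RchiOBHm chromosomes. The RchiOBHm set held only chromosomal peaks, without the peak over 10000 bp, and the RcHzRDP12 list was not cut to chromosomes in this way. At 3000 bp or more there were 24 on RcHzRDP12 and 122 on RchiOBHm, and the widest peaks were 4895 and 5907 bp. The domains of RcHzRDP12 had a median fold of 9.43. Peaks were not paired between the assemblies, and why the counts differ was not tested.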

How the data were processed

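Chromatin immunoprecipitation and sequencing of petal H3K9ac gave 1 library, whose peak lists on 2 assemblies were used. MACS2, SICER, Bowtie2, Trim Galore and FastQC appear in the submitters' processing notes without roles. Their versions, their settings and the treatment of duplicate or multiply placed reads were not given in the sources used. How nearby stretches are joined into a peak sets its width. The deposited fold enrichment is a ratio at the summit over a background. The recovered background was at a library-wide floor for 10.1% of domains and 20.5% of other peaks, and above it for the rest. The authors deposited a p-value and a q-value per peak as −log10 values, and a score equal to 10 times that −log10 q-value cut to a whole number. The lowest −log10 q-value was 1.31, and no read totals are stated.

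Fragments over the summit and the background were recovered from fold and p-value under a Poisson model. The fold was taken as their ratio with 1 added to each. The recovery was within 0.002 in the −log10 p-value for 46389 of 46391 peaks. Fold intervals are exact Poisson intervals on these fragments. Coordinates are counted from 1. Genes came from the RefSeq table of RchiOBHm-V2, with 41022 genes on the 7 chromosomes, 30798 of them protein-coding. It gives no strand, exons or product names, so starts, promoters, protein lengths and functional gene lists that had been planned were not analysed here, and no sequences are shown. The main gene had the most overlapped bases, with ties going to the shorter gene. Named genes are the main genes of the 10 widest domains, the 10 of highest fold and the 5 on the most genes. Members, lists and comparisons were chosen with earlier results of these data known. Overlap, end and depth computations were tested on simulated data. Intervals came from scipy 1.17.1, tables from pandas 2.3.3 with numpy 2.4.6, and plots from matplotlib 3.10.9, under Python 3.11.15. Comparisons by summit height, gene neighbours and transcript number were added after values had been seen.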

Additional observations from a re-analysis of the deposited data

Results flagged for a closer look

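Wide peaks also occurred outside the 7 chromosomes. The sequence named CP held 66 peaks, of which 5 were 1500 bp or more wide, up to 3395 bp. Their folds of 1.98 to 2.58 were below the lowest fold of any chromosomal domain, 3.13. Unplaced sequences held 139 peaks, of which 3 were this wide, with folds of 7.13 to 14.6. The input libraries were not analysed here, so no control level can be set beside these counts.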

How the results depend on the processing

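The number of domains depended on the rule. It was 4031 with a width minimum of 1200 bp, 682 with 2000 bp and 839 on the RcHzRDP12 list. Keeping peaks with a −log10 q-value from 10 up gave 1918, and there were 2773 after joining peaks with gaps of 200 bp or less, both within 1.5 times 1961. With the 2000 bp minimum, summits at gene ends were 68.9% and the median covered share was 76.01%. The share at gene ends was 41.2% with an end zone of 500 bp. Joining raised the share on 2 or more genes to 10.3%, and requiring at least 50% of each gene lowered it to 0.561%. The excess of domains over other peaks at gene ends was 23.4 percentage points and turned to −3.08 against the next-widest peaks. The difference in median main gene length went from −514 to −348 bp. The cause of these shifts was not tested. No paired analysis was possible because there is 1 library. A fold at 50 fragments carries a wide counting interval, so single domains were rarely ordered.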

Other observations

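Most domains had no other domain within 20000 bp. The nearest other domain was a median of 38591 bp away (34260 to 44240), with quartiles at 8736 and 118209 bp, and 114 domains (5.81%, 4.82 to 6.94) had another within 1000 bp. Within 20000 bp there was another for 721 domains (36.8%, 34.6 to 38.9). When domains no more than 20000 bp apart were chained, 1240 stood alone, 226 chains held 2 domains and 56 held 3. Chains of 4, 5, 6 and 7 domains numbered 13, 6, 2 and 1. The chain with the most domains, on chromosome 2 from 168272 to 222333, held 7 domains of 1699 to 2303 bp among 17 peaks and 10 protein-coding genes. Chains of 6 lay on chromosome 3 from 11400051 to 11447179, with 7 protein-coding genes, and on chromosome 4 from 59209609 to 59267234, with 8. On chromosome 6 from 3807739 to 3823067, all 4 peaks of the stretch were domains, over 3 protein-coding genes. The distances were not set beside those of other peaks or of domains placed at random. They therefore do not show whether domains lie closer together or farther apart than their number implies. The chains named were picked with their values in view.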
